A study of Homo sapiens with 6 samples.

Results

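The genes described here were 35 markers of kidney lineage and of the proximal tubule, and the question was how much of each was present in the HK-2 line and whether its level differed between the control and the ANXA2 knockdown libraries. The members were taken as the rows of the deposited read table that carried their symbols. A row was present for 30 of the 35 genes, among 26899 genes in the table. Of these 30, 20 had enough reads for the test across the 15299 genes that passed the filter on low counts, 7 had reads but too few for the test, and 3 were at the floor, meaning at most 3 reads in every library. EMX2, WT1, POU3F3, NAT8 and UMOD had no row under their symbol or Ensembl identifier. The table listed only genes with at least 1 read over the 6 libraries.

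HK-2 is a widely used human cell line that was derived from kidney proximal tubule and transformed with human papillomavirus 16. The series held 6 RNA-seq libraries of this line, 3 labelled control and 3 labelled ANXA2 knockdown, numbered 1 to 3 in each group. The control cells were named wild type in the titles and shCtrl in the descriptions, so the labels leave unclear whether they carried a control hairpin plasmid. All cells were grown in serum-containing medium, the labels mention plasmid transfection with Lipofectamine for HK-2 cells as a whole, and directional libraries were made from polyadenylated RNA. Nothing in the labels said that the libraries came from separate cultures, so p-values measured only the spread between these samples, which may be technical.

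In kidney development, PAX2, PAX8 and LHX1 act in the embryonic epithelium that gives rise to the nephron, and HNF4A then drives the genes of the mature proximal tubule. The mature cell takes up filtered protein through the receptors megalin and cubilin, carries peptidases and alkaline phosphatase on a brush border, makes glucose, and performs the last step of vitamin D activation. Cultured tubule cells are known to lose much of this programme.

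The targeted gene was not lower in the libraries labelled knockdown beyond the spread between libraries. ANXA2, which encodes annexin A2, a calcium-dependent membrane-binding protein, stood at 1658, 1461 and 1675 CPM (read counts scaled to library size, with the trimmed mean of M values, TMM) in control libraries 1, 2 and 3. In the libraries labelled knockdown it stood at 1538, 1561 and 1519 CPM. The ranges overlapped, and the log2 fold change was -0.05 (SE 0.075, edgeR quasi-likelihood test, Benjamini-Hochberg adjusted p = 0.848), with a 95% interval of the change from -14.3% to 8.29%. Groups are therefore named below by their labels. Depth was 24231267 to 34561675 reads per library, with 18861 to 21819 genes detected in each.

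Among all 15299 tested genes, 0 (0%) passed an adjusted p of 0.05 in edgeR, while 1251 (8.18%) had an unadjusted p under 0.05, 590 of them (3.86%) higher and 661 (4.32%) lower in the knockdown group. Limma-voom and limma-trend also called 0 genes, and DESeq2 called 32, none of them a member. Groups of 3 libraries did not overlap at 2392 genes (15.6%), which were 1214 higher (7.94%) and 1178 lower (7.7%).

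The members covered a wide range of levels. On the per-length scale of the deposited FPKM (fragments scaled for transcript length and library depth), PAX8 was the most abundant with a mean of 115.2 over the 6 libraries, at rank 525 of 26803 genes in that table. GGT1 followed at 69.0, DPP4 at 29.4, PDZK1 at 22.5, LHX1 at 13.4, MIOX at 8.81 and CYP24A1 at 6.81 FPKM. VDR (3.44), DAB2 (3.02), KL (2.15), PAX2 (1.57), GATM (1.28) and CYP27B1 (1.03) lay between 1 and 4 FPKM. The other 7 tested members were below 1 FPKM, from MME at 0.778 down to TFCP2L1 at 0.03. In each library the FPKM of PAX8 lay above that of every other member, whereas VDR and DAB2, or PAX2, GATM and CYP27B1, overlapped with their neighbours in this order. In bulk RNA, fewer cells with a transcript and less of it per cell cannot be told apart.

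**Figure D1:**
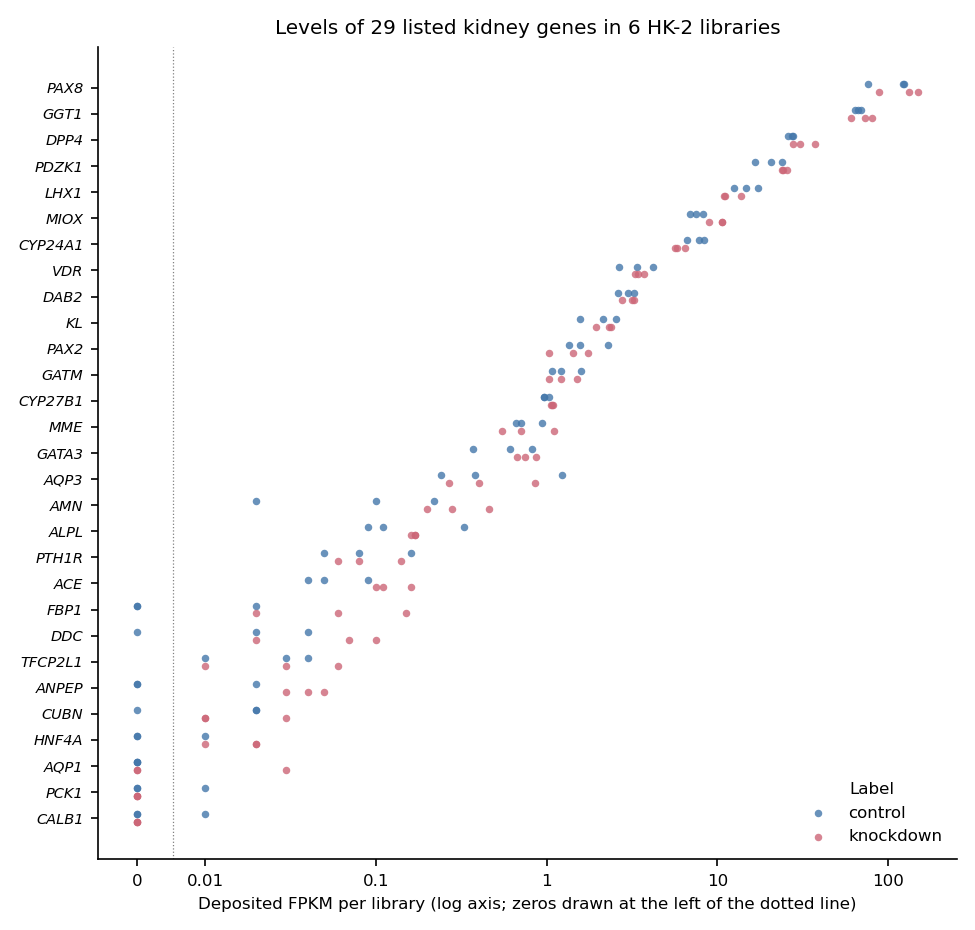
FPKM of the 29 members present in the deposited FPKM table, 1 point per library on a logarithmic axis, with zeros drawn left of the dotted line and the control and knockdown labels in 2 colours. PAX8, GGT1 and DPP4 lie at the top at means of 115.2, 69.0 and 29.4 FPKM, and the points of both labels lie side by side for most genes.

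Of the 9 lineage transcription factors, 5 were tested, 1 was low and 3 had no row. PAX8 (GRCh38, chromosome 2, 113215997 to 113278921, minus strand), a paired-box factor of the early nephron, stood at 343, 537 and 553 CPM in control libraries 1 to 3. In knockdown libraries 1 to 3 it stood at 600, 677 and 393 CPM. Control 1 and knockdown 3 were the low libraries of their groups and the ranges overlapped. The log2 fold change was 0.22 (SE 0.221, 95% interval -0.28 to 0.72, edgeR adjusted p = 0.787). Without control 1 the estimate was 0.033, and without knockdown 3 it was 0.42. PAX8-AS1, an antisense gene that shares 1651 exonic bases with PAX8 in GENCODE, had 442 reads in all against 97308 for PAX8, and no source read here says whether counting used the strand.

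LHX1, a LIM homeobox factor of the nephron precursors, went the other way in the estimates. It stood at 63.0, 52.8 and 45.2 CPM in the control libraries and at 40.4, 39.9 and 49.98 CPM in the knockdown libraries. Knockdown 3 lay inside the control range. The log2 fold change was -0.31 (SE 0.148, edgeR unadjusted p = 0.0684, adjusted p = 0.615). PAX2, the paired-box partner of PAX8, stood at 10.25, 6.85 and 6.04 CPM against 6.42, 4.66 and 7.79 CPM, with a log2 fold change of -0.29 (SE 0.263, edgeR adjusted p = 0.759). Without control 1 the PAX2 estimate was -0.0355, and without knockdown 3 it was -0.47. For PAX2 and LHX1, control 1 and knockdown 3 were the highest libraries of their groups, the reverse of PAX8.

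GATA3, a zinc finger factor of the ureteric bud and collecting duct lineage, stood at 2.01, 1.19 and 2.66 CPM in the control and 2.87, 2.45 and 2.18 CPM in the knockdown libraries. TFCP2L1, a factor of the distal nephron and collecting duct, had 54 reads in all, with 0.0693 to 0.575 CPM per library and both extremes in libraries labelled knockdown. Neither passed the test, with edgeR adjusted p-values of 0.777 and 0.951.

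HNF4A (chromosome 20, 44355699 to 44432845), the nuclear receptor of mature proximal tubule and liver, was close to silent. It had 1, 0 and 1 reads in the control libraries and 4, 5 and 3 reads in the knockdown libraries. A single read was worth 0.0293 to 0.041 CPM in these libraries, so HNF4A lay below 0.2 CPM in each of them. EMX2 and WT1, factors of the early kidney of which WT1 persists in podocytes, and POU3F3, a factor of the loop of Henle and distal tubule, had no row.

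Among the 4 endocytic genes, the adaptor DAB2 had the most reads and the megalin gene the fewest. LRP2 (chromosome 2, 169127109 to 169362534), which encodes megalin, had 1 read in control 3 and 0 reads in the other 5 libraries. CUBN, which encodes cubilin, had 0, 7 and 7 reads in the control and 4, 4 and 12 reads in the knockdown libraries. AMN, which encodes amnionless, the membrane anchor of cubilin, had 80 reads, with 0.205, 0.0306 and 0.449 CPM against 0.41, 0.575 and 0.935 CPM. Only knockdown 2 and 3 lay above the whole control range for AMN. AMN met the low-count filter's limit of 0.313 CPM in all 3 knockdown libraries but only in control 3. It thus entered the test mainly through the group where it was high. Its log2 fold change of 1.47 (SE 0.795, 95% interval -0.32 to 3.26, edgeR adjusted p = 0.636) had the largest size among the tested members in this fit. It was 0.93 without control 2 and 2.48 without control 3, and on log2(FPKM + 1) it was 0.24, below MIOX at 0.37. AMN shares 760 exonic bases on the opposite strand with CDC42BPB, which had 22167 reads, so its few reads are uncertain. DAB2, a clathrin adaptor that binds the tail of megalin, stood at 12.9, 14.4 and 15.9 CPM in the control and at 15.5, 16.1 and 13.5 CPM in the knockdown libraries, with a log2 fold change of 0.06 (SE 0.147, edgeR adjusted p = 0.917).

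The water channels were scarce as well. AQP1, the constitutive water channel of the proximal tubule and descending limb, had 4 reads, all in knockdown 1. AQP3, a basolateral channel of the collecting duct that also passes glycerol, stood at 2.42, 0.459 and 0.738 CPM in the control and at 0.791, 1.70 and 0.52 CPM in the knockdown libraries. Control 1 and knockdown 2 were its high libraries and the groups overlapped.

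The brush border genes had the most members with enough reads, 6 of 7. GGT1, gamma-glutamyltransferase, stood at 222, 226 and 241 CPM in the control and at 256, 280.0 and 208 CPM in the knockdown libraries, with a log2 fold change of 0.11 (SE 0.116, edgeR adjusted p = 0.796). Its near-identical copies complicate the count: the related genes GGT3P and GGT2 had 767 and 16 reads of their own against 44291 for GGT1. How reads shared between copies were assigned is not stated in those sources either.

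DPP4, dipeptidyl peptidase 4, stood at 109, 116 and 115 CPM in the control libraries and at 129, 158 and 116 CPM in the knockdown libraries. Every knockdown library lay above every control library, but knockdown 3 at 116.2 CPM cleared control 2 at 115.6 CPM by under 1 CPM. The log2 fold change was 0.24 (SE 0.121, edgeR unadjusted p = 0.0735, adjusted p = 0.619). PDZK1, a scaffold that holds transporters at the brush border, stood at 58.9, 40.1 and 50.2 CPM against 59.1, 59.3 and 62.0 CPM. Its groups also did not overlap, although control 1 at 58.91 CPM nearly reached knockdown 1 at 59.14 CPM, and the log2 fold change was 0.28 (SE 0.14, edgeR adjusted p = 0.627).

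The remaining brush border enzymes were low. MME, neprilysin, stood at 6.97, 5.17 and 4.85 CPM in the control and at 5.33, 8.24 and 4.09 CPM in the knockdown libraries, with the 2 outermost values in the knockdown group. ALPL, tissue-nonspecific alkaline phosphatase, stood at 0.328, 0.948 and 0.257 CPM against 0.469, 0.485 and 0.485 CPM, so the control libraries enclosed the knockdown libraries. ACE, angiotensin-converting enzyme, stood at 0.533, 0.214 and 0.257 CPM against 0.615, 0.909 and 0.554 CPM. Its groups did not overlap, and the log2 fold change was 1.07 (SE 0.568, edgeR adjusted p = 0.631) on 95 reads in all. ACE met the low-count filter's limit of 0.313 CPM in all 3 knockdown libraries but only in control 1. It thus entered the test mainly through the group where it was high. ANPEP, aminopeptidase N, had 0, 0 and 3 reads in the control and 5, 4 and 6 reads in the knockdown libraries, too few for the test.

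**Figure D2:**
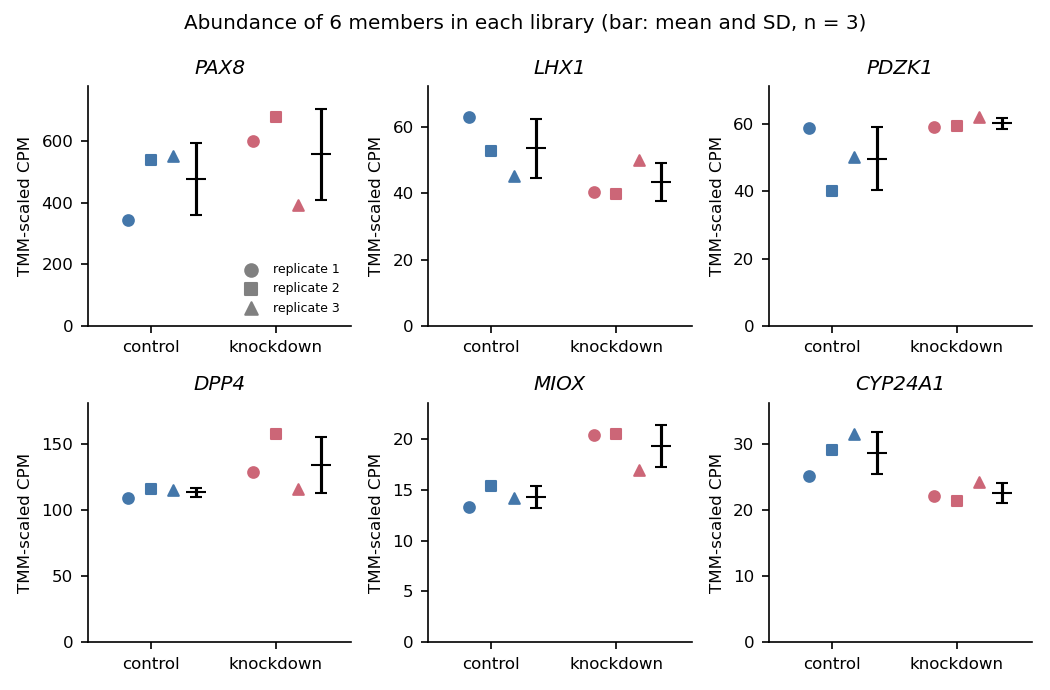
TMM-scaled CPM of 6 members, chosen after their values were seen, in each control and knockdown library, with axes starting at 0, marker shapes for replicate numbers, and the mean and SD (n = 3) at the right of each group. PAX8 spreads from 343 to 677 CPM with its low libraries in both groups, whereas MIOX and CYP24A1 show 3 libraries of 1 label wholly above the other 3.

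Of the 6 metabolic enzymes, 2 were tested. MIOX (chromosome 22, 50486784 to 50490648), myo-inositol oxygenase, a kidney enzyme that breaks down inositol, stood at 13.3, 15.4 and 14.2 CPM in the control libraries. In the knockdown libraries it stood at 20.4, 20.5 and 16.9 CPM. All 3 knockdown libraries were above all 3 control libraries. The log2 fold change was 0.43 (SE 0.14, 95% interval 0.12 to 0.75, edgeR unadjusted p = 0.0129), and the adjusted p of 0.599 did not pass. GATM, which makes the precursor of creatine, stood at 3.28, 3.64 and 4.85 CPM against 3.75, 3.15 and 4.57 CPM, and the groups overlapped throughout. The gluconeogenic enzymes among the members were near zero. PCK1, phosphoenolpyruvate carboxykinase, had 1 read in control 1 and none elsewhere. FBP1, fructose-bisphosphatase, had 0, 0 and 1 reads in the control and 9, 1 and 3 reads in the knockdown libraries. DDC, which makes dopamine in the tubule, had 0, 2 and 3 reads against 2, 9 and 5 reads. NAT8, an N-acetyltransferase of the proximal tubule, had no row. FBP1 shares 283 exonic bases on the opposite strand with PCAT7, which had 306 reads.

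The vitamin D, phosphate and calcium genes were 4 of 6 tested. CYP24A1 (chromosome 20, 54153446 to 54173986), the hydroxylase that inactivates vitamin D, stood at 25.2, 28.97 and 31.5 CPM in the control libraries. In the knockdown libraries it stood at 22.1, 21.4 and 24.2 CPM. All 3 knockdown libraries were below all 3 control libraries. The log2 fold change was -0.34 (SE 0.128, 95% interval -0.63 to -0.05, edgeR unadjusted p = 0.0252), and the adjusted p of 0.605 did not pass. CYP27B1, the hydroxylase that activates vitamin D, stood at 2.79, 2.57 and 2.60 CPM against 2.96, 2.88 and 2.91 CPM. These groups did not overlap either, but the log2 fold change was only 0.14 (SE 0.237, edgeR adjusted p = 0.88). CYP27B1 shares 107 exonic bases on its own strand with METTL1, which had 5798 reads against 513.

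VDR, the vitamin D receptor, stood at 23.9, 14.8 and 19.0 CPM in the control and at 21.25, 19.5 and 18.6 CPM in the knockdown libraries. KL, Klotho, the co-receptor through which the phosphate hormone FGF23 acts, stood at 8.40, 13.25 and 11.3 CPM against 10.5, 12.8 and 12.3 CPM. Both overlapped, with log2 fold changes of 0.04 and 0.11. PTH1R, the receptor of parathyroid hormone, had 10, 6 and 4 reads in the control and 5, 7 and 10 reads in the knockdown libraries. CALB1, the calcium-binding calbindin of the distal tubule, had 1 read in control 3. UMOD, uromodulin of the thick ascending limb, had no row.

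Set against the labelled tissue, the members matched it only in part. Megalin, cubilin, aquaporin 1, HNF4A, PCK1 and FBP1 were at or near zero in all 6 libraries, while PAX8, GGT1, DPP4, PDZK1 and MIOX were plainly present. Genes from the marker lists of other nephron cells were present in part. The podocyte gene NPHS1 had 38 reads and the distal genes AQP2 and SLC12A1 had no row, whereas CLDN16, a tight junction gene of the thick ascending limb, averaged 5.29 FPKM beside 8.81 FPKM for MIOX. The 23 distal and collecting duct markers, 6 of them tested, summed to 28.0 to 30.9 CPM in the control and 30.4 to 35.4 CPM in the knockdown libraries, with CLDN16, SCNN1A and HSD11B2 the most abundant. The 10 podocyte markers (5 tested) summed to 83.5 to 122 CPM against 101 to 130 CPM, led by the filament gene NES at a mean of 8.70 and the actin-binding gene SYNPO at 5.11 FPKM, with PODXL next. The part of any other cell type in these values was not tested.

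Markers of non-epithelial cells were also present in part. The 8 endothelial markers summed to 20.3 to 25.8 CPM in the control and 22.3 to 27.7 CPM in the knockdown libraries, with EGFL7 the only one tested at a mean of 9.08 FPKM, and PECAM1 had 2 reads. The 10 fibroblast and mesangial markers (4 tested, led by LUM at a mean of 7.56 FPKM, COL1A1 and ACTA2) summed to 30.7 to 39.4 CPM against 32.6 to 33.9 CPM. The 10 leukocyte markers (4 tested, led by CD14, CD68 and CSF1R) summed to 3.43 to 5.75 CPM against 4.23 to 7.15 CPM, and PTPRC had no row. General epithelial genes were abundant, with KRT8 at 491 and KRT18 at 261 FPKM and CLDN1 at 119 FPKM, and none of the 14 tested of 15 passed the adjusted threshold in edgeR. Among them, 1 had an unadjusted edgeR p under 0.05 on the higher side and 1 on the lower. Over all 15299 tested genes these were 3.86% and 4.32%.

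A promoter of 250 upstream bases was found in the RefSeq table for GRCh38 for 29 of the 35 genes (not LHX1, CYP27B1, CYP24A1, VDR, PCK1 and CALB1), and CpG dinucleotides, the sites of DNA methylation, were counted in it. The first entry of each symbol was used, so a window need not be the promoter in use in these cells. Methylation itself was not measured. The 4 promoters printed were chosen to set an abundant member and a CpG-rich one beside the receptors at or near zero, after their values were seen, and CpG positions are in capitals, 5′ to 3′ on the gene's strand.
PAX8 (chr2:113278922-113279171, minus): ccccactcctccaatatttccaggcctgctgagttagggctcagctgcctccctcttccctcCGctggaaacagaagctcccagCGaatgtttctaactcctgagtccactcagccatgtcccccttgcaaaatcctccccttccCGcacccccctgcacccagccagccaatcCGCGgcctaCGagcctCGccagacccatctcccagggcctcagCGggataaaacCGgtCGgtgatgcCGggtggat
KL (chr13:33016173-33016422, plus): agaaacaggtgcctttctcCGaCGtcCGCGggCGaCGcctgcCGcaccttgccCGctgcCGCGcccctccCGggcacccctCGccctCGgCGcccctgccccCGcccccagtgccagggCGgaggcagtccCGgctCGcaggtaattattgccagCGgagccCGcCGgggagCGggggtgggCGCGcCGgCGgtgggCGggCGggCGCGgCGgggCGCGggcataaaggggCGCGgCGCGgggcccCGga
LRP2 (chr2:169362535-169362784, minus): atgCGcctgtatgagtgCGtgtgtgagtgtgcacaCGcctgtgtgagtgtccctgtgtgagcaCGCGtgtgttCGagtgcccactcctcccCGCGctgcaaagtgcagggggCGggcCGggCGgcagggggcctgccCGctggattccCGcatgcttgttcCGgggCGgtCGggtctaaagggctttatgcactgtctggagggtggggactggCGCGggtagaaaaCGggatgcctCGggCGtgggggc
CUBN (chr10:17129812-17130061, minus): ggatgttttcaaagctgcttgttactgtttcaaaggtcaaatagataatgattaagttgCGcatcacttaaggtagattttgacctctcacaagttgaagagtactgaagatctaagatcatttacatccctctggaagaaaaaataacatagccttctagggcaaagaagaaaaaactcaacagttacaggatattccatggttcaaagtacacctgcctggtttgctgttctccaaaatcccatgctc
PAX8 carried 11 CpG, KL 38, LRP2 21 and CUBN 1.

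In these windows, members with many reads had both few and many CpG. The low-CpG examples named here had windows that did not end at the GENCODE gene start, so the contrast describes the windows only. LRP2 with 21 CpG had 1 read, whereas PDZK1 with 4, MIOX with 5 and GGT1 with 8 were among the most read. The GGT1 window ended at 24583749, short of the GENCODE gene start at 24594811. The PDZK1 window, 145707401 to 145707650, lay inside the gene, which ends at 145708148 on the minus strand. The MIOX window ran past its gene start. The median was 11 CpG for the 16 tested members with a promoter and 8 for the 13 others. Over all 27305 promoters in the table the median was also 11, with 21 for the 10207 promoters of tested genes and 4 for the remaining 17098. The windows of ACE, MME, GATM and DAB2 also lay inside their genes. The windows of the tested members thus carried fewer CpG on the median than those of tested genes in general. This describes the windows used and need not hold for the promoters in use.

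**Figure D3:**
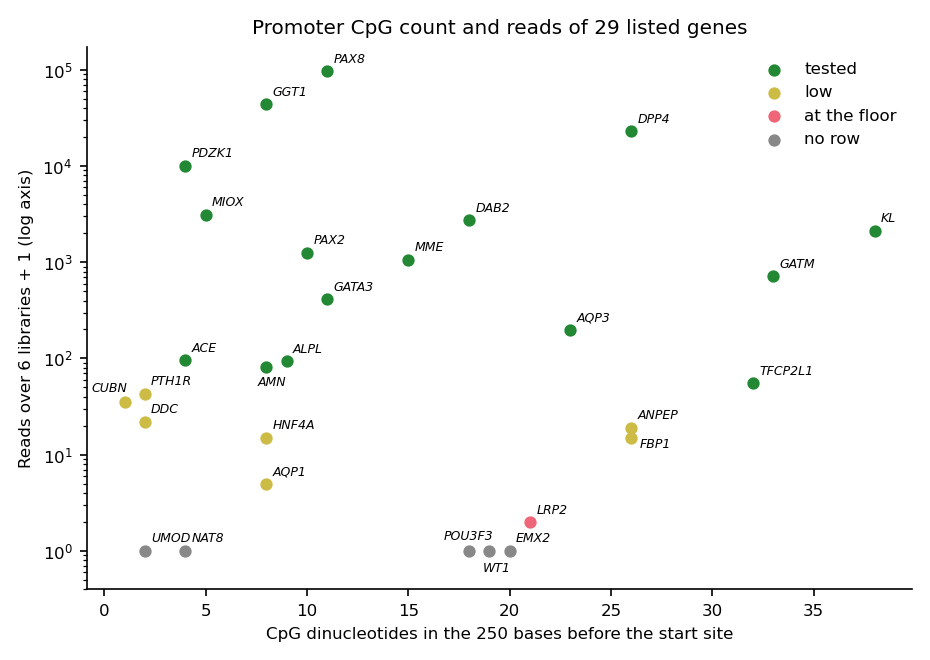
CpG dinucleotides in the 250 bases before the first listed RefSeq start site of 29 members, against reads summed over the 6 libraries plus 1. The read axis is logarithmic, and points are coloured by whether the gene was tested, low, at the floor or without a row. Members with many reads lie at low and high CpG counts alike, from PDZK1 at 4 to KL at 38, and LRP2 lies near the bottom at 21. The windows of PDZK1, MIOX and GGT1 do not end at the GENCODE gene start.

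The comparison between labels found no member past the threshold. Of the 20 tested, 0 passed an adjusted p of 0.05 against 0% of all tested genes, and the smallest adjusted p was 0.599. Unadjusted, 2 members (10%) had p under 0.05, MIOX on the higher and CYP24A1 on the lower side, beside 8.18% of all tested genes. The groups did not overlap at 6 members (30%) beside 15.6% of all tested genes: DPP4, PDZK1, ACE, MIOX and CYP27B1 were higher in the knockdown group and CYP24A1 was lower there. The median log2 fold change over the 20 was 0.11, with 14 above (70%) and 6 below zero. Over all tested genes the median was -0.01, with 49% above zero. AMN, ALPL and ACE met the filter's limit of 0.313 CPM in all 3 knockdown libraries but in fewer of the control libraries, and 0 members did the reverse, so counts over the tested members are not neutral between the groups. The median biological coefficient of variation was 0.202 for the members and 0.17 for all tested genes.

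**Figure D4:**
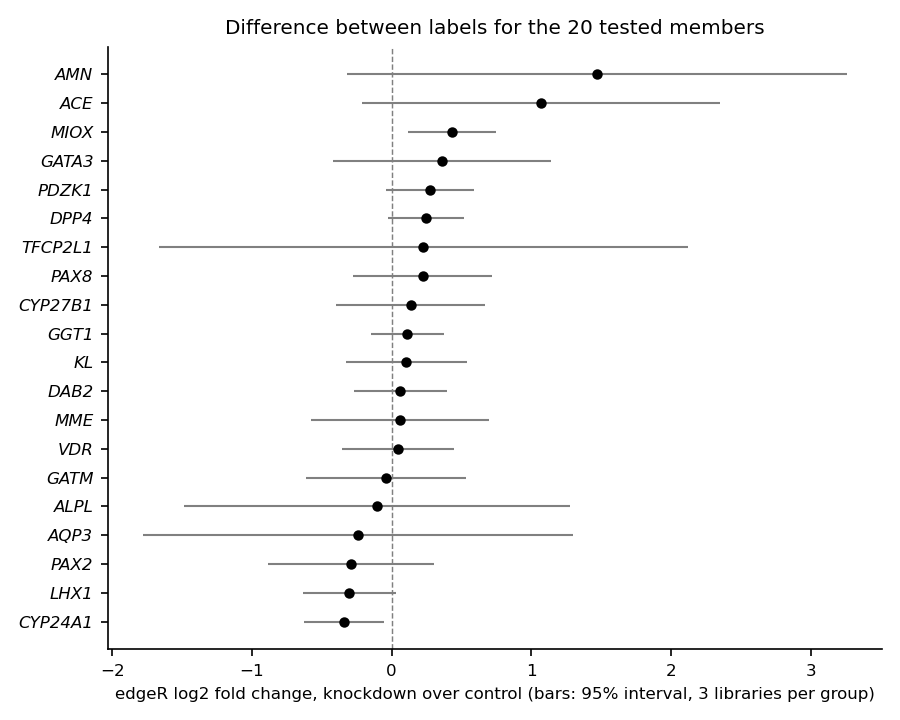
Log2 fold change, knockdown over control, of the 20 tested members with its 95% interval from the edgeR fit on 3 libraries per group. The intervals of MIOX (0.12 to 0.75) and CYP24A1 (-0.63 to -0.05) leave out 0 before adjustment, and the widest belong to members with few reads such as TFCP2L1 and AMN.

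Members with too few reads for the test were compared by their summed reads. HNF4A had 12 reads in the knockdown and 2 in the control libraries, a ratio of 5.51 after scaling for depth, with an exact 95% interval of 1.23 to 50.7. ANPEP had 15 against 3 reads (4.59, interval 1.3 to 24.8), FBP1 13 against 1 (11.9, interval 1.79 to 508) and DDC 16 against 5 (2.94, interval 1.03 to 10.3). These intervals cover counting error only, not the spread between libraries. CUBN with 20 against 14 reads (1.31, interval 0.631 to 2.81) and PTH1R with 22 against 20 reads (1.01, interval 0.526 to 1.95) had intervals that held 1. Thus 4 of 6 members with 10 to 50 reads had intervals above 1 and 0 below. Among all 3993 untested genes in that range, 15.9% had intervals above and 15.6% below 1. Per library, the groups did not overlap for HNF4A and ANPEP, 2 of these 6 members, beside 9.09% of the 3993 untested genes. Knockdown 1 gave 9 of the 13 knockdown reads of FBP1.

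The spread within groups followed the libraries for several members. Control 1 and knockdown 3 were both the lowest of their groups for PAX8, DAB2, GGT1, DPP4 and MIOX, and both the highest for PAX2, LHX1 and PDZK1. This held for 8 of 20 tested members (40%) and for 37.5% of all tested genes, so the members did not stand apart. Control 1 and knockdown 3 were also the shallowest libraries of their groups, at 24231267 and 28866835 reads. They had the fewest genes detected in their groups, 18861 and 19569. Whether depth bears on the pattern was not tested. PDZK1IP1, a membrane protein that binds PDZK1, showed the pattern with a wider range, at 166, 482 and 393 CPM in the control and 458, 534 and 207 CPM in the knockdown libraries.

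Other genes of the same programme, drawn from wider lists, were tested in the same fit and 0 of them passed the adjusted threshold in edgeR. Of 28 other kidney transcription factors, 23 were tested. HOXA9 and HOXD11 were among the most abundant of these. SALL1, a zinc finger factor of nephron progenitors, had the smallest unadjusted p of the list at 0.00504, with 32.6, 36.6 and 21.2 CPM in the control and 19.7, 16.9 and 18.7 CPM in the knockdown libraries. All 3 knockdown libraries were below the control libraries for SALL1 (log2 fold change -0.71, SE 0.194, edgeR adjusted p = 0.599). HOXA9 was next with a log2 fold change of -0.38. Of the 23 tested, 16 estimates lay below zero, with a median of -0.12, beside 7804 of all 15299 tested genes below zero.

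Solute transporters of the proximal tubule were partly present, 14 of 27 tested, led by ABCC4, ABCB1 and SLC7A7. SLC5A1, SLC22A6, SLC22A8 and SLC22A12, carriers of glucose, organic anions and urate, had no row. The glucose carrier SLC5A2 and the phosphate and urate carriers SLC17A1 and SLC17A3 were tested, with 81, 201 and 652 reads in all. The bicarbonate carrier SLC4A4 (log2 fold change -0.39, edgeR unadjusted p = 0.023) and the efflux pump ABCC2 (-1.07, unadjusted p = 0.0352) had the smallest p-values, both with adjusted p of 0.605. Further proximal tubule enzymes were tested for 9 of 30, led by GPX3, ASS1 and ASL. In that list PCK2, a second phosphoenolpyruvate carboxykinase gene, averaged 6.98 FPKM, whereas the gluconeogenic gene G6PC had 1 read in all. ASS1, argininosuccinate synthase of the arginine pathway, stood at 51.5, 50.4 and 64.4 CPM in the control and 87.3, 100.2 and 64.7 CPM in the knockdown libraries. Knockdown 3 cleared control 3 narrowly, and the log2 fold change was 0.60 (SE 0.168, edgeR unadjusted p = 0.00566, adjusted p = 0.599). KHK, which phosphorylates fructose, followed at 0.53.

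All 13 genes of the wider endocytic machinery had enough reads for the test, led by GIPC1, FOLR1 and EHD1, with a median log2 fold change of 0.03. Their mean levels went from 94.1 down to 0.467 FPKM. RAB11A, a GTPase of recycling endosomes, at -0.24 and FCGRT, the neonatal Fc receptor, at 0.33 had the smallest p-values. Of 21 other brush border proteins, 4 were low, 3 had no row, and VIL1, MYO1A, MYO7B, CDHR2 and CDHR5 were at the floor. The remaining 9 were tested, led by PDZK1IP1 (296 FPKM), EZR (254 FPKM) and SLC9A3R1. TMEM27, collectrin, had the smallest p of these, at 0.0410, 0.0918 and 0.449 CPM in the control against 0.469, 0.939 and 1.11 CPM in the knockdown libraries (log2 fold change 2.05, SE 0.792, edgeR adjusted p = 0.605), and NT5E was next. TMEM27 met the filter's limit in all 3 knockdown libraries but in 1 control library, so it entered the test mainly through the group where it was high. Other vitamin D and phosphate genes were tested for 11 of 20, led by STC2, SLC20A1 and CYP27A1, and the phosphate exporter XPR1 (log2 fold change -0.26) had the smallest p, with SLC20A1 next.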

How the data were processed

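RNA-seq of 6 HK-2 libraries was analysed, 3 per label. The raw read counts per gene were deposited by the authors without normalization, as were FPKM values, which the authors had scaled for transcript length and depth. The submitters' processing notes name bcl2fastq, TopHat2, edgeR and GRCh38; the counting program, annotation and strand setting are not given in the labels or files.

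Counts were tested in R 4.3.3 with edgeR 4.0.16: filterByExpr (minimum count 10, minimum total 15), TMM scaling, two-sided quasi-likelihood test and Benjamini-Hochberg adjustment over all tested genes at 0.05. The fit was run on simulated counts with large changes at well-read genes only, which cannot speak for small changes or for genes with few reads. FPKM was used for levels between genes. Alternatives were RLE, upper-quartile and library-size scaling, no filter, DESeq2 1.42.0, limma 3.58.1 (voom, and trend on log2(FPKM + 1) and log2(FPKM + 0.1)), a replicate block, and leaving out each library. Ratios of summed reads had exact binomial 95% intervals. Coordinates came from GENCODE 44 on GRCh38 and promoters from RefSeq. No replicates were duplicates: the chi-square per degree of freedom between them was 10.4 to 53.5.

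The members and the wider gene lists were chosen with earlier results of these data known. All members are accounted for. From the wider lists of kidney and proximal tubule genes, the up to 3 genes with the highest mean FPKM and up to 2 with the smallest p were named. From the lists of cell type markers, not all of these were named. Defining cell type markers with few or no reads, and further enzymes, transporters and brush border genes, were named after their values were seen. A few genes of the wider lists are not reported here.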

Additional observations from a re-analysis of the deposited data

How the results depend on the processing

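No tested member passed the adjusted threshold in edgeR or under any of the 15 alternatives. The number of genes called was 165 without the low-count filter and 32 with DESeq2, and ranged from 0 to 4 when 1 library was left out, the 4 arising without knockdown replicate 2. Of 300 estimates for single members, 282 kept their direction and 18 turned it, at 8 members; the cause was not tested. AQP3 became 0.0439 and ALPL 0.10 on the log2 scale with limma-voom, ALPL 0.0479 and MME -0.00637 on log2(FPKM + 0.1). With 1 library left out, the estimates ranged from -0.00774 to 0.14 for DAB2, -0.85 to 0.75 for AQP3, -0.0526 to 0.26 for KL, -0.54 to 0.68 for TFCP2L1, -0.43 to 0.71 for ALPL, -0.11 to 0.23 for VDR, -0.26 to 0.27 for MME and -0.19 to 0.14 for GATM. MIOX stayed within 0.37 to 0.52 and CYP24A1 within -0.42 to -0.26 over the alternatives, but neither had an unadjusted p under 0.05 without knockdown replicate 1 or without knockdown replicate 2, nor CYP24A1 without control replicate 3. The median over members lay between 0.05 and 0.20.

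Deviations from the group mean of same-numbered libraries had r of -0.06, 0.12 and -0.20 for numbers 1 to 3. Differently numbered libraries gave r from -0.23 to 0.22. Deviations within groups of 3 are tied to each other, so these values cannot decide whether the numbers pair the libraries. With a replicate block, 0 genes were called, 1076 had an unadjusted p under 0.05, the median over members was 0.10 and ALPL turned to 0.10. At this depth members with few reads cannot be compared closely.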
